A study of Mus musculus with 36 samples.

Results

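Cd200 and Btla lie next to each other among the array genes of mouse chromosome 16, and each encodes a single-pass membrane protein of the immunoglobulin superfamily. The pair was chosen by symbol, as the rows of the value table that carry exactly 1 annotated symbol, and it makes up 2 of the 22180 genes so named. Each gene was read by 1 probe set, so no second probe set of the same gene was at hand. The choice was made with the KO against WT values of these arrays known, so those differences are given as a description with no test.

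Expression arrays were run on 36 samples of sorted naive CD4 T cells, from mice labelled TRIM28KO (Trim28-KO, here KO) and from their wild-type littermates (WT). Each genotype was profiled unstimulated (naive) and after 72 h with antibodies to CD3, bound to the plate, and to CD28, in solution, under conditions named Th0, Th1, Th2, Th17 and Treg, which gives 12 groups of 3 samples. Cytokines of the conditions, the Trim28 allele, the promoter of any Cre, strain, age and the number of animals behind a sample were not given in the sources used here, so p-values measure the spread between these samples, which may be technical. All values are log2 intensities from RMA, the multi-array summary that puts arrays on 1 common scale, and a difference of 1 is a 2-fold change. In such bulk samples fewer cells that carry an RNA and less RNA per cell cannot be told apart.

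CD200 is a ligand rather than a receptor: it engages the CD200 receptor, found mainly on myeloid cells and also on some T cells, which restrains the cell that carries it through the adaptor DOK2 and RasGAP. BTLA is a receptor with tyrosine motifs in its tail. It binds HVEM, the product of Tnfrsf14, and recruits the phosphatases SHP-1 and SHP-2. Both proteins are found on B cells and on follicular helper T cells as well as on other T cells. TRIM28 is recruited to chromatin by KRAB zinc-finger proteins and represses transcription there.

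The promoters of the pair are shown as a description of their sequence, and their part in the KO against WT differences was not tested. Each runs from 250 bases before to 50 bases after the start of the gene in RefSeq (GRCm38.p6). The Btla window is chr16:45224087-45224386 on the plus strand and the Cd200 window is chr16:45409004-45409303 on the minus strand, so the genes are transcribed towards each other. Capitals mark matches, on either strand, to any of 11 short motifs of general knowledge.
Btla: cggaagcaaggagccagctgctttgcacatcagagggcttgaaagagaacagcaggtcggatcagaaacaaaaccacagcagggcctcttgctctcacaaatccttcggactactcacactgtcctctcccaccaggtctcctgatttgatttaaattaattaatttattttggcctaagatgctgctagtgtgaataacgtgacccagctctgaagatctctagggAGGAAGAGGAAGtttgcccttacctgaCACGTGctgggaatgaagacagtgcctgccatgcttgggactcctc
Cd200: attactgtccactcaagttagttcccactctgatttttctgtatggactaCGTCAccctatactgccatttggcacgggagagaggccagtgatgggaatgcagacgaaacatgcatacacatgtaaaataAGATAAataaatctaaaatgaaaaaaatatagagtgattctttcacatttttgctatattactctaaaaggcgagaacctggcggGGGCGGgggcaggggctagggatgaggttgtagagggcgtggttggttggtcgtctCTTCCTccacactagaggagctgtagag
For immune signalling the search used AP-1, spelled TGANTCA, and the NFAT core, GGAAA. The STAT motif was TTCNNNGAA and the SMAD element GTCTAGAC. Lineage factors were covered by GATA, spelled AGATAA, and by the ROR core, AGGTCA. More general motifs were ETS, spelled AGGAAG, the CRE core, TGACG, and the E-box, CACGTG. The GC box was GGGCGG and the TATA box TATAAA. No motif contains another of the list. Btla held 2 adjoining ETS matches, a motif found in 35.4% of the 32851 promoters of this length, and 1 E-box (7.15%). Cd200 held 1 ETS match, 1 GC box (35.7%), 1 CRE core (20.8%) and 1 GATA match (11.2%). ETS was thus the motif of the 11 that both windows held. Neither window held the letters searched for AP-1, NFAT, STAT, ROR, TATA or SMAD, which says only that these letters are not in these windows. The Btla window had 5 CpG sites and the Cd200 window 8, against a median of 7 over all promoters. A match is a description of the sequence, not a binding site.

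The arrays bore out the genotype labels, since Trim28 was lower in every KO group than in WT, by 3.95-fold in naive cells and by 8.48-fold to 14.3-fold in the stimulated groups (limma, highest adjusted p over the 6 conditions 7.3e-10). The mean level of 9 T cell marker genes lay between 10.8 and 11.3 in all samples of both genotypes. Single markers differed between KO and WT on the mean over the 6 conditions. Of the 9, all tested, 5 rose and 1 fell, Thy1 (-0.32, limma adjusted p = 3.4e-07), with a list median of 0.09, against 18.9% of all genes up and 27.5% down. Genes were tested where 3 or more samples exceeded 5.26, the median of all values. Of the 12 B cell markers with a row 4 passed this filter. On the mean KO against WT difference over the 6 conditions 0 of the 4 rose and 1 fell, H2-Ab1 (-0.52, limma adjusted p = 3.6e-05), while Cd79b rose in Th17 (0.51). The mean level of the 12 lay between 4.29 and 5.10 in WT and between 4.30 and 5.22 in KO samples. The defining B cell genes Ms4a1 and Cd79a were below that filter, with mean levels of 3.27 and 4.10 in KO and 3.28 and 3.95 in WT. Mean levels in WT and KO ran from 4.52 to 4.93 and 4.54 to 5.10 for 11 myeloid markers (on the same mean difference 1 of 4 tested rose, 0 fell), from 5.20 to 6.05 and 5.44 to 6.13 for 7 CD8 and NK markers (2 of 5 rose, 0 fell) and from 5.09 to 5.56 and 5.07 to 5.51 for 7 endothelial and stromal markers (0 of 3 rose, 1 fell). Their part in the results was not tested. KO Th0 1 and KO Th1 1 stood apart in 14 proliferation genes, at a mean level of 7.56 and 7.98 against 9.23 to 10.01 in their replicates and 10.65 to 10.71 in WT Th0 and Th1. All 14 fell on the mean over the 6 conditions (median -0.82), and their part in the results was not tested. Xist was high in WT naive 1 and in samples 1 and 2 of KO naive, and low in the rest. Sex was read from Xist alone, with the samples high in it taken as female. In the KO against WT comparison averaged over the 6 conditions, limma called 46.4% of the 13082 genes tested at an adjusted p under 0.05, 18.9% of all as higher and 27.5% as lower in KO. After another quantile normalization the split of 2474 higher and 3599 lower genes became 3265 and 3020.

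In WT cells Cd200 was highest in Th17. Its levels were 10.44, 10.58 and 10.84 in Th17, against 7.66, 8.17 and 7.79 in Th0, with no overlap between these samples. The rise was 6.70-fold, a log2 difference of 2.74 (SE 0.37, limma adjusted p = 6.2e-07), in a comparison in which 20.3% of genes rose. Of the 4 tested B cell markers 2 rose with it and 0 fell (list median 1.997), Ebf1 by 4.21 (18.5-fold, limma adjusted p = 4e-14) and H2-Ab1 by 4.04 (16.5-fold). The mean level of the 12 B cell markers was 4.38 to 4.50 in WT Th0 and 5.06 to 5.10 in WT Th17. Of the CD8 and NK markers Klrd1 rose by 3.68. The part of these markers in the rise of Cd200 was not tested. None of the other 4 comparisons within WT passed for Cd200. Naive samples lay at 7.18, 7.29 and 7.12, below all Th0 samples, and the difference of Th0 from naive was 0.68 (SE 0.37, limma adjusted p = 0.13, in a comparison with 31.2% of genes called up). It passed without WT Th2 1 (limma adjusted p = 0.041). Th1 samples, at 8.33, 8.74 and 8.68, lay above all Th0 samples, with a difference of 0.71 (SE 0.37, limma adjusted p = 0.27, with 5.43% of genes called up).

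The Th2 and Treg levels of Cd200 in WT were uneven. In Th2 they were 6.33, 7.98 and 8.62, a spread (SD 1.18) wider than in any other group, and they overlapped those of Th0 (difference -0.23, SE 0.37, limma adjusted p = 0.66, and 0.43 without WT Th2 1). In Treg they were 6.38, 7.59 and 7.70, where sample 1 was the low one again (difference from Th0 -0.65, SE 0.37, limma adjusted p = 0.16, and -0.23 without WT Treg 1). These p-values do not show that Cd200 is equal in Th0, Th2 and Treg cells.

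Btla followed another order in WT cells: it stayed near its naive level in Th0, Th1 and Th17 and was lower in Th2 and Treg. Naive samples lay at 10.55, 10.53 and 10.57 and Th0 samples at 10.33, 10.41 and 10.53 (difference -0.13, SE 0.23, limma adjusted p = 0.68, with 22.3% of genes called down). All Th0 samples were below all naive samples, by a narrow margin (highest Th0 sample 10.527, lowest naive sample 10.528). Th1 had 10.66, 10.43 and 10.73, and Th17 10.32, 10.62 and 10.68. Both conditions overlapped Th0 and neither passed (0.18 with an adjusted p of 0.75 and 0.11 with 0.74, limma). These p-values do not show that Btla is equal in naive, Th0, Th1 and Th17 cells. Th2 had 7.89, 8.84 and 9.33, all below Th0, a fall of 3.34-fold (-1.74, SE 0.23, limma adjusted p = 7.6e-07, in a comparison with 22.9% of genes called down). Treg had 8.83, 9.20 and 9.38, also all below Th0, a fall of 2.44-fold (-1.29, SE 0.23, limma adjusted p = 5.5e-05, in a comparison with 22.4% of genes called down). Sample 1 was the lowest of its group in both conditions, as it was for Cd200, and without WT Th2 1 the Th2 difference of Btla was -1.34. In WT Th2 markers of other cell types moved in both directions against Th0. Of the 4 tested B cell markers 2 rose and 0 fell, H2-Ab1 by 4.25. Of the 5 tested CD8 and NK markers 1 rose, Gzma by 4.14, and 2 fell, Klrd1 (-0.93) and Prf1 (-0.52). Of the 4 tested myeloid markers 1 rose, Adgre1 by 3.74, and 1 fell. In WT Treg Prf1 rose by 1.51, and H2-Ab1 (-1.16) and Cd8b1 (-1.05) fell. Their part in the falls of Btla was not tested. The shares of all genes called up in WT Th2 and WT Treg against Th0 are not given here, so nothing is read from the markers that rose. The WT samples of these comparisons also entered the KO against WT values by which the genes were chosen.

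**Figure D1:**
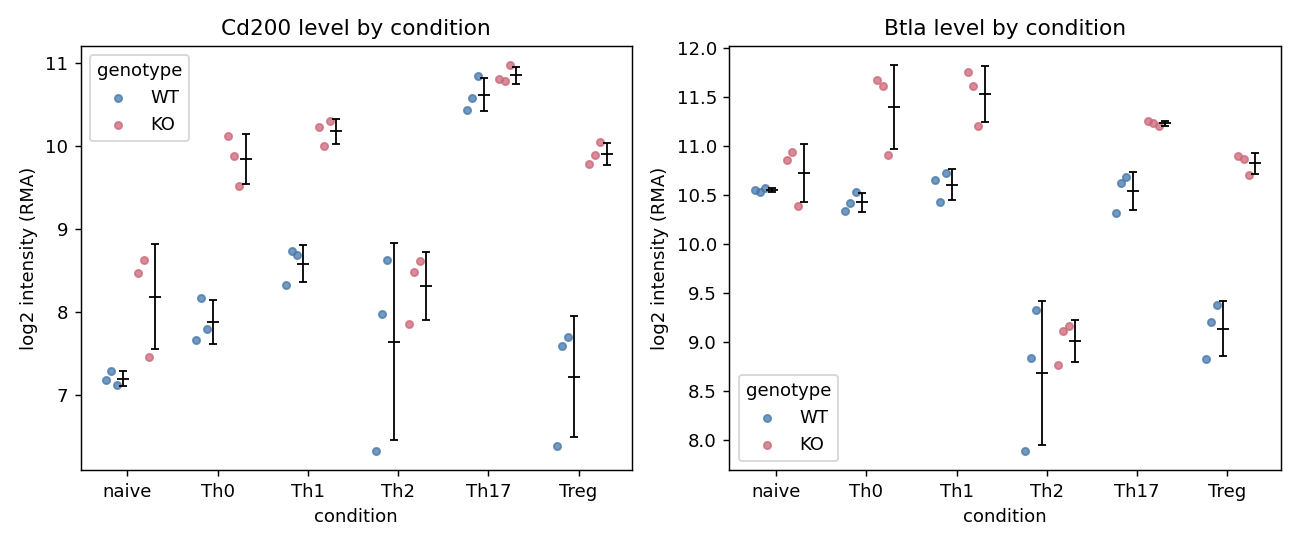
Levels of Cd200 (left) and Btla (right) in the 6 conditions as log2 intensity, with a point for each of the 3 WT (blue) and 3 KO (red) samples and black bars for the mean and SD of a group. The KO samples lie above the WT samples of Treg, Th0 and Th1 in both genes, while Th2 overlaps in both and Cd200 in Th17 is high in both genotypes.

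Loss of TRIM28 went with higher Cd200 in naive, Th0, Th1 and Treg cells, where every KO sample lay above every WT sample. The widest gap was in Treg, where KO samples lay at 9.79, 9.89 and 10.05 against 6.38, 7.59 and 7.70 in WT, a difference of 2.68 (SE 0.37, 6.43-fold). It was 2.26 without WT Treg 1. In the same comparison 2 of the 5 tested CD8 and NK markers rose and 0 fell, Prf1 by 1.67 (limma adjusted p = 1e-08) and Cd8a by 1.02 (0.0078). The mean level of the 7 was 5.23 to 5.48 in WT and 5.74 to 5.96 in KO Treg. The myeloid marker Itgam rose by 1.72 and the endothelial marker Pecam1 had -0.80 and fell. The part of these markers in the gaps of Cd200 and Btla in Treg was not tested. In Th0 the KO samples had 10.12, 9.88 and 9.52 (difference 1.97, SE 0.37, 3.91-fold) and in Th1 10.23, 10.002 and 10.30 (1.59, SE 0.37, 3.01-fold). With both KO samples numbered 1 of Th0 and Th1 left out, the low ones in proliferation genes, the gaps were 1.83 and 1.57.

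Naive KO cells had 8.47, 8.62 and 7.46 of Cd200 (difference 0.99, SE 0.37, 1.98-fold). The pair of high samples was high in Xist. The lower one was low in Xist and still lay above the WT samples with low Xist, at 7.29 and 7.12. The WT sample with high Xist had 7.18, and with a term for sex, read from Xist, the difference was 0.81. In Th2 the KO samples, at 7.85, 8.48 and 8.62, overlapped those of WT, and the difference of 0.67 (SE 0.37) was 0.01 without WT Th2 1. In Th17, where WT cells already had their highest level, KO cells had 10.80, 10.79 and 10.97, which overlapped WT (0.24, SE 0.37). Over the 6 conditions the mean difference was 1.36 (SE 0.15, 2.56-fold), the 18th highest of the 13082 genes tested, and the Treg difference was the 10th highest of its comparison. In the Treg comparison limma called 1.71% of genes higher in KO and in naive cells 0.948%, against 16.8% in Th0, 17% in Th1, 7.51% in Th2 and 4.03% in Th17. The shares called lower were 0.199% in naive cells, 19.6% in Th0, 23.7% in Th1, 8.88% in Th2, 4.18% in Th17 and 2.51% in Treg. These shares are the background of the comparisons that chose the genes and nothing is read from them here.

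Btla was higher in KO cells of Th0, Th1, Th17 and Treg, again with every KO sample above every WT sample. In Treg the KO samples had 10.90, 10.87 and 10.70, which brought them above the WT naive level, and the difference from WT Treg was 1.69 (SE 0.23, 3.22-fold). In Th0 they had 11.68, 11.61 and 10.91 (0.97, SE 0.23) and in Th1 11.76, 11.62 and 11.21 (0.92, SE 0.23). In Th17 they had 11.25, 11.23 and 11.20 (0.69, SE 0.23, 1.61-fold), the tightest of the KO groups with an SD of 0.03. Naive KO cells had 10.86, 10.93 and 10.39 and overlapped WT (0.18, SE 0.23, and 0.09 at the lowest among alternatives with no single sample left out). Sample 3 was the low one as it was for Cd200. It was the KO naive sample with low Xist, and it lay below all WT naive samples. KO Th2 cells had 8.77, 9.11 and 9.16 and overlapped WT too (0.33, SE 0.23), with a difference of -0.07 without WT Th2 1. The mean over the 6 conditions was 0.80 (SE 0.10, 1.74-fold), the 89th highest of the genes tested.

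The conditions in which KO and WT samples separated were not all the same for the 2 genes. Both separated in Th0, Th1 and Treg, with Treg first for each and Th0 second, and neither did in Th2. The share of all genes whose samples separate in this way was not counted. Groups of 3 samples separate often, so the separation is given as a description. Cd200 separated in naive cells and not in Th17, Btla in Th17 and not in naive cells. The overlap of Cd200 in Th17 came from WT Th17 3, at 10.84 against 10.80 and 10.79 in KO Th17 1 and 2. Neither the difference between conditions nor that between the genes was tested, because the same contrasts chose the genes.

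**Figure D2:**
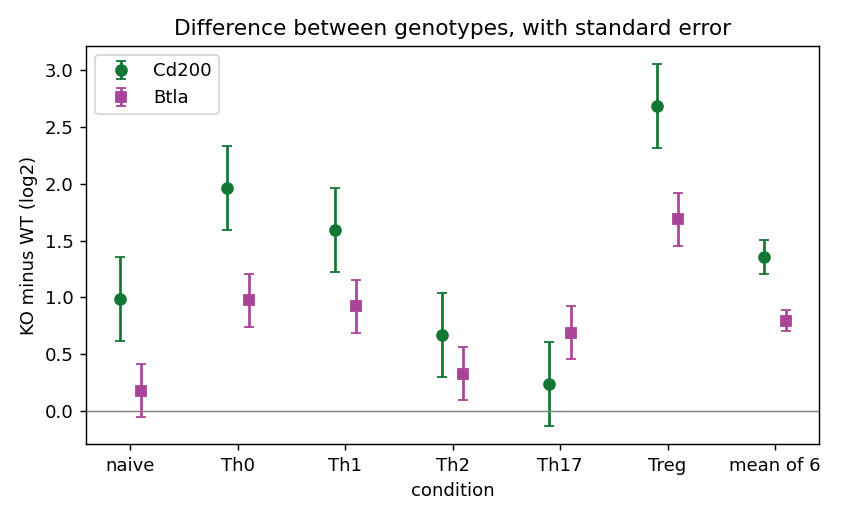
KO minus WT difference of Cd200 (circles) and Btla (squares) in each condition and as the mean of the 6, on the log2 scale, with bars for the standard error. Treg has the highest difference for both, 2.68 and 1.69. In Th17 alone the value of Cd200 (0.24, SE 0.37) lies below that of Btla (0.69, SE 0.23), and the difference between the genes was not tested.

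Within KO cells the conditions were ordered as follows, given as values with no test. Cd200 was 1.66 (SE 0.37) higher in KO Th0 than in KO naive cells, against 0.68 in WT, and KO Th17 was 1.01 above KO Th0, against 2.74 in WT. KO Th2 minus KO Th0 was -1.53 with no overlap, against -0.23 in WT, where the value was 0.43 without WT Th2 1. KO Treg was level with KO Th0 (0.07) and KO Th1 close to it (0.33), both overlapping. The means of Cd200 over the 6 conditions thus spanned 2.67 in KO and 3.42 in WT, from naive to Th17 in each genotype.

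Over all genes limma called 26.2% up in KO Th0 against KO naive, 25.4% up in KO Th17, 24.8% down in KO Th2 and 12% down in KO Treg, each against KO Th0.

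Btla kept its low Th2 level in KO cells, at a difference from KO Th0 of -2.38 (SE 0.23) with no overlap, against -1.74 in WT. KO Treg differed from KO Th0 by -0.57, all samples below, against -1.29 in WT. Stimulation gave 0.67 in KO, with overlap, where WT had -0.13. KO Th1 (0.13) and KO Th17 (-0.17) overlapped KO Th0. The means spanned 2.51 in KO and 1.92 in WT, from Th2 to Th1 in each.

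Ordered by mean, Cd200 ran from KO Th17 (10.85) over WT Th17 (10.62), KO Th1 (10.18), KO Treg (9.91) and KO Th0 (9.84) to WT Th1 (8.58), and on over KO Th2 (8.31), KO naive (8.19), WT Th0 (7.87), WT Th2 (7.64) and WT Treg (7.22) to WT naive (7.20). Neighbours in this order overlapped in their samples except at 2 steps, from WT Th17 down to KO Th1 (0.44) and from KO Th0 down to WT Th1 (1.26). All 5 groups above the wider step were KO groups or Th17. Btla ran from KO Th1 (11.53), KO Th0 (11.40) and KO Th17 (11.23) over KO Treg (10.82), KO naive (10.73), WT Th1 (10.61), WT naive (10.55), WT Th17 (10.54) and WT Th0 (10.42) to WT Treg (9.14), KO Th2 (9.01) and WT Th2 (8.69). Its steps without overlap were from KO Th17 to KO Treg (0.41) and from WT Th0 to WT Treg (1.29). The wider step set both Th2 groups and WT Treg apart, and KO Treg was not among them.

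The members were also compared inside the groups, a measure that does not use the difference between genotypes or conditions. When the mean of its group was taken from each sample, the deviations of Cd200 and Btla correlated with r = 0.82 over the 36 samples (Pearson), 0.90 over the 18 WT and 0.67 over the 18 KO samples. Both genes deviated in the same direction in 20 of the 36 samples, not far above an even split. Of 13081 other genes tested, Btla had the highest correlation with the deviations of Cd200, and Cd200 the highest with those of Btla. That place rested in part on WT Th2. Without WT Th2 1 and WT Th2 3, the samples farthest out in Cd200, r was 0.66 and the places were 22nd and 19th. Without all 3 WT Th2 samples, an alternative chosen after the data were seen, r was 0.65 and the places were 27th and 20th. KO naive 1 and 2, high in Xist, lay above their group mean in both genes, and KO naive 3, low in Xist, lay below it in both. The part of sex in the correlation was not tested. The points share a library for both genes, the 3 deviations of a group sum to 0, and the correlation is given as a description. The 8 neighbouring genes that passed the filter had correlations between -0.46 (Gtpbp8) and 0.24 (Cd200r1) with the deviations of Cd200 and between -0.18 (Gtpbp8) and 0.26 (Nepro) with those of Btla. The deviations of the proliferation genes correlated with -0.25 (Cd200) and -0.37 (Btla), and their part in the likeness was not tested.

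**Figure D3:**
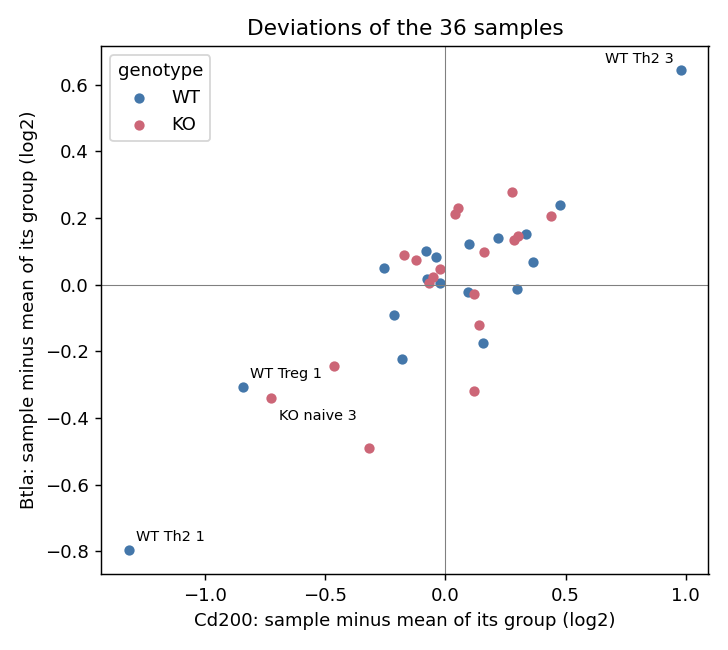
Deviation of each of the 36 samples from the mean of its group on the log2 scale, for Cd200 (horizontal) and Btla (vertical), WT in blue and KO in red. WT Th2 1 lies lowest and WT Th2 3 highest in both genes, WT Treg 1 and KO naive 3 are low in both, and 20 of the 36 samples deviate in the same direction in both genes (r = 0.82, and 0.66 without WT Th2 1 and WT Th2 3).

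Genes around the pair were next compared between KO and WT, to see how far along the chromosome the higher level reached. These genes were not used in choosing the pair. No array gene lay between Btla and Cd200 in the RefSeq order, where 2 non-coding genes, Gm30636 and Gm30760, stood between them. Of the 10 array genes on each side, 8 of 20 passed the filter on low values, and all 12 that did not were low in both genotypes, among them Gm609, the next array gene beyond Cd200. On that side every array gene from Gm609 to Tmprss7 failed the filter. The nearest tested gene there was Tagln3, at place 7, close to the filter with mean levels of 5.34 in KO and 5.39 in WT. The counts that follow therefore say little about the stretch next to Cd200. Averaged over the 6 conditions 0 of the 8 rose and 4 fell, with 0 up and 5 down at an unadjusted p under 0.05 (limma), against 18.9% of genes called up and 27.5% down. The median difference of the 8 was -0.13 and that of all genes -0.01. With no filter, 0 of all 20 rose and 5 fell.

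The nearest tested genes were Atg3, which encodes an enzyme of autophagy, and Slc35a5, a gene of the nucleotide sugar transporter family, both on the side of Btla. Atg3 had -0.07 (limma adjusted p = 0.17) and Slc35a5 -0.10 (0.086) on the mean, and neither passed. The 4 that fell were Abhd10 (-0.36, SE 0.09), Cd200r1 (-0.34, SE 0.11), Plcxd2 (-0.19, SE 0.07) and Nepro (-0.16, SE 0.04), with limma adjusted p-values of 0.0028, 0.014, 0.034 and 0.0032. After another quantile normalization 2 of them passed, Abhd10 and Cd200r1. Plcxd2, a gene at the edge of the window, also lost its call when single samples were left out, WT Th2 1 and KO naive 3 among them. Tagln3 (-0.05) and Gtpbp8 (0.06) did not pass on the mean.

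In single conditions 1 neighbour rose, Gtpbp8 in Th1 (0.44, SE 0.16, limma adjusted p = 0.025), in a comparison with 17% of genes called up. Its call was lost without KO Th1 1 or WT Th1 2 (highest adjusted p over all alternatives 0.15). In Treg, the condition with the widest gaps of Cd200 and Btla, 0 of the 8 rose and Cd200r1 (-1.26) and Nepro (-0.46) fell (limma, 1 up and 2 down at an unadjusted p under 0.05), against 1.71% of genes up and 2.51% down. Atg3, the array gene beside Btla, had 0.26 there (limma adjusted p = 0.18) and passed after another quantile normalization (0.30, adjusted p = 0.048) and without WT Treg 1. In Th2 Nepro fell (-0.32, SE 0.11, limma adjusted p = 0.039, lost in 7 settings). No tested neighbour passed in naive, Th0 or Th17 cells, but Gtpbp8 rose in Th0 after another quantile normalization (0.42, limma adjusted p = 0.022). At an unadjusted p under 0.05 these had 0, 1 and 0 up and 0, 0 and 1 down.

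**Figure D4:**
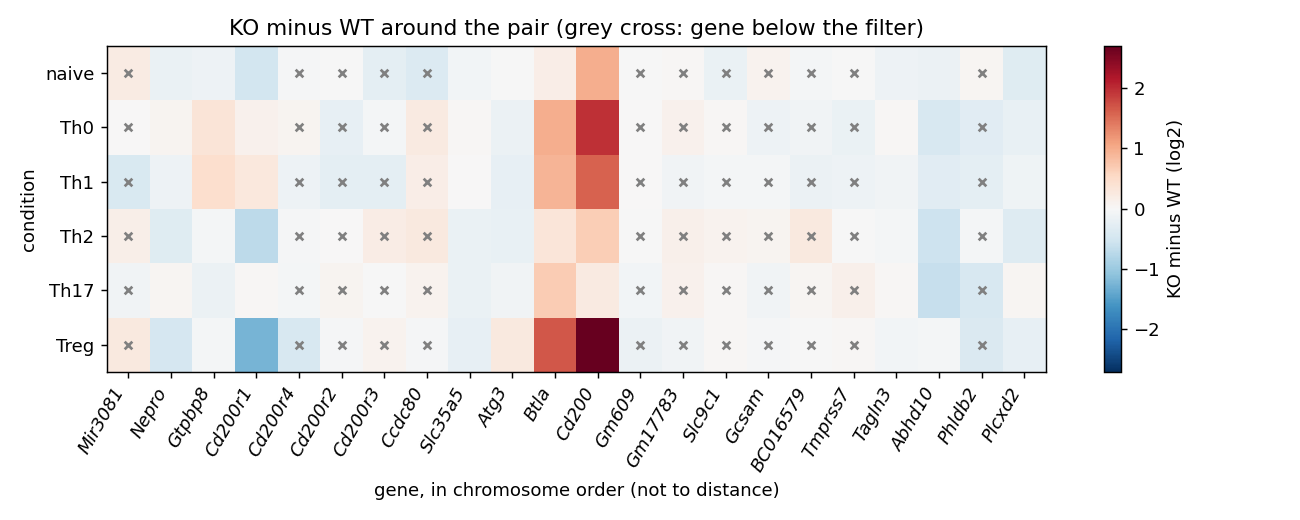
KO minus WT difference (colour, log2 scale) in the 6 conditions for Btla, Cd200 and the 10 array genes on either side in chromosome order, with grey crosses on genes that did not pass the filter on low values. The columns of Btla and Cd200 are red in most conditions, palest for Btla in naive cells and for Cd200 in Th17, between neighbours with smaller differences, and Cd200r1 in Treg (-1.26) is the deepest blue.

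Of the CD200 receptor family, which lies in the same stretch of chromosome 16, Cd200r1 passed the filter. It encodes the inhibitory receptor for CD200. In WT it was highest in Treg (7.89, 8.05 and 8.52) and Th2 (7.81, 7.98 and 7.88), the conditions in which Btla was low and Cd200 uneven. Cd200 had its lowest WT mean in naive cells (7.20), and there the mean of Cd200r1 was below those of Treg and Th2. High Cd200r1 thus did not go with low Cd200 in all WT conditions. KO Treg samples had 6.77, 6.39 and 7.52, all below WT (-1.26, SE 0.28, 2.40-fold lower, limma adjusted p = 0.0046), with the call lost without KO Treg 2 or without WT Treg 3. KO Th2 samples had 7.12, 7.14 and 7.31, all below WT as well, and the difference of -0.70 passed with the replicate number as a block (adjusted p = 0.029) but not without it. Ligand and receptor thus stood in opposite order in Treg cultures: KO had more Cd200 and less Cd200r1 than WT. Cd200r2, Cd200r3 and Cd200r4, close copies of each other whose probe sets may not tell them apart, did not pass the filter.

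Tnfrsf14, the gene of HVEM, was higher in KO together with its receptor. Its mean difference was 0.37 (limma adjusted p at most 3.6e-05 over all alternatives). In Th0 the KO samples had 9.20, 9.23 and 9.03 against 8.57, 8.48 and 8.51 (0.64) and in Th1 9.68, 9.52 and 9.24 against 8.86, 8.51 and 8.59 (0.82). Both conditions passed, with no overlap. Th17 passed too (0.45), a call lost in 14 settings. In Treg, where Btla differed most, Tnfrsf14 had 8.92, 8.79 and 8.98 in KO and 8.91, 9.28 and 9.09 in WT and did not pass (-0.20). The other HVEM ligand genes did not rise or fall on the mean: Tnfsf14, which encodes LIGHT, had -0.02, Lta, which encodes lymphotoxin alpha, -0.31, and Cd160 did not pass the filter.

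Of the 18 genes of partners and signalling with a row 14 were tested, and on the mean 4 rose and 2 fell, against 18.9% and 27.5% of all genes, with a median of 0.04 against -0.01. Under another quantile normalization 8 rose. The 4 were Tnfrsf14, Fyn (0.30), the gene of a Src-family kinase, Tnfrsf1b (0.20), a TNF receptor gene, and Inpp5d (0.09), which encodes the lipid phosphatase SHIP-1. The 2 that fell were Cd200r1 and Ptpn11 (-0.13), the gene of SHP-2. Ptpn6, the gene of SHP-1, had -0.10 and did not pass, as did Ltbr (0.09), Grb2 (0.05), Dok1 (0.04), Dok2 (0.05) and Rasa1 (-0.07). In single conditions Fyn rose in Th0 (0.53) and Th1 (0.38), Tnfrsf1b in naive cells (0.58) and Th17 (0.57), Dok1 in Th0 (0.26) and Dok2 in Th2 (0.33). Those that fell were Ptpn6 in Th0 (-0.42) and Th1 (-0.32), Tnfsf14 (-0.65) and Ptpn11 (-0.29) in Th0, Lta in Th1 (-0.95), Rasa1 in Th17 (-0.64) and Cd200r1 in Treg. Ptpn6 lost its Th1 call under median centering (limma adjusted p = 0.082) and after another quantile normalization (0.051). Lck and Cd247 had no row with a single symbol.

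**Figure D5:**
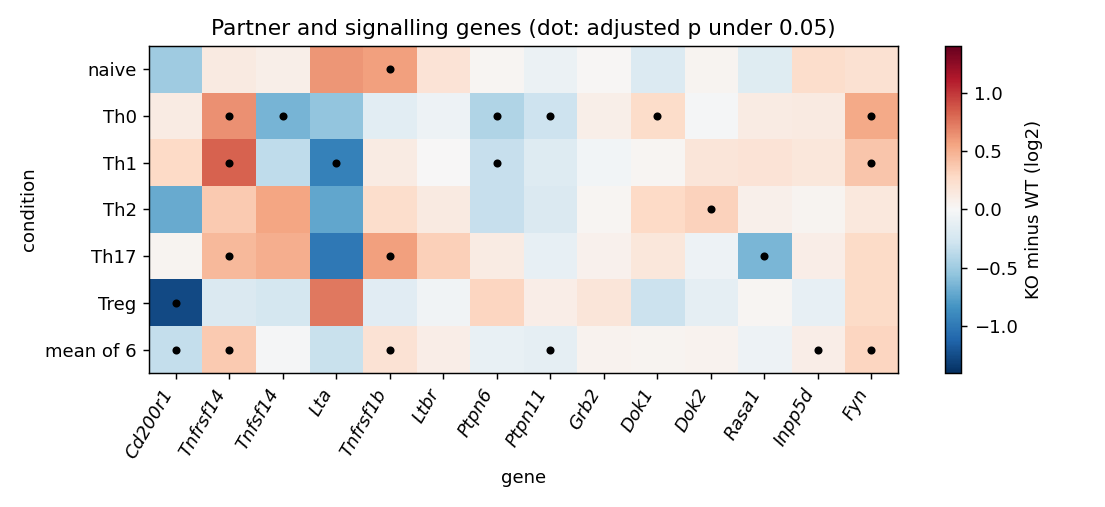
KO minus WT difference (colour, log2 scale) of the 14 tested genes for partners and signalling of CD200 and BTLA, in the 6 conditions and as their mean, with a dot where limma's adjusted p was under 0.05. Tnfrsf14 is raised in Th0, Th1 and Th17 and Cd200r1 lowered in Treg.

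A further list held genes of inhibitory surface proteins, both receptors and ligands, without the pair. Of its 17 tested genes 5 rose and 5 fell on the mean over the conditions, against 18.9% of all genes up and 27.5% down. The median was -0.03 against -0.01 for all genes. Those that rose were Cd244a (0.55), Ctla4 (0.30), Tigit (0.29), Cd274 (0.26) and Vsir (0.25), and those that fell were Lair1 (-0.69), Entpd1 (-0.53), which encodes the ectoenzyme CD39, Ceacam1 (-0.49), Lilrb4a (-0.38) and Cd96 (-0.28). In Treg 0 rose and 3 fell, Entpd1 (-0.89), Ceacam1 (-0.72) and Cd101 (-0.41), against 1.71% of all genes up and 2.51% down. Ceacam1 lost this call after another quantile normalization (limma adjusted p = 0.088). In Th2 5 rose and 2 fell (7.51% and 8.88% of all genes), in Th1 2 and 5, in Th0 2 and 3, in Th17 2 and 1, and in naive cells 0 and 0 (limma, 1 and 1 at an unadjusted p under 0.05). The list held Cd96, which lies on the same chromosome beyond the 10 genes next to Cd200. Pdcd1, which encodes PD-1, had -0.11 and did not pass. The lists were written with earlier results of these data known.

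Among 20 tested genes of follicular helper T cells, in which both proteins are known to be abundant, 7 rose and 2 fell on the mean (median 0.01), against 18.9% of all genes up and 27.5% down (median -0.01). The gene of the lineage factor Bcl6 rose by 0.96, Izumo1r, which encodes folate receptor 4, by 1.24, the chemokine receptor gene Cxcr5 by 0.58, Slamf6 by 0.51, Il6ra by 0.42, Lef1 by 0.23 and Tox2 by 0.17. Maf, a factor that drives Il21, fell by 0.61 on the log2 scale and the costimulatory receptor gene Icos by 0.14, where Icos lost its call without single samples (WT Th0 2, KO naive 1 or WT naive 1) and Tox2 without both KO samples numbered 1 of Th0 and Th1. Pdcd1 is in this list too. Bcl6 rose in Th0 (1.65), Th2 (1.58), Th17 (1.31) and Th1 (1.14) and had -0.00 in Treg, the condition in which Cd200 and Btla differed most. In Treg 2 of the 20 rose, Izumo1r (1.91) and Slamf6 (1.08), and 3 fell, Maf (-1.43), Icos (-0.85) and Sh2d1a (-0.68), against 1.71% of all genes up and 2.51% down. Sh2d1a lost this call under median centering (limma adjusted p = 0.055).

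By pattern over the 12 group means, the genes most like Cd200 were Zfp948 (r = 0.92), Mxd1 (0.89), Ccdc66 (0.88), Rtl6 (0.86) and Sh3rf1 (0.84), and those most like Btla were Bbs1 (0.89), Hsdl2 (0.87), Tapbpl (0.86), Hoxaas3 (0.86) and Vwa8 (0.85). These lists had no gene in common, and over the 36 samples 6 of the 10 were again among the first 5. Zfp948, a zinc-finger protein gene, had its highest WT mean in Th17 (8.85) and its lowest in naive cells (6.42), as Cd200 did, and KO minus WT differences of 1.51 in Th0, 1.01 in Treg and -0.04 in Th17. Btla itself was the 193rd gene by likeness to Cd200 over the group means (r = 0.66) and Cd200 the 121st by likeness to Btla.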

How the data were processed

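Arrays were read on an Affymetrix GeneTitan, per the labels' protocols. The deposited values are log2 intensities that the authors made by RMA with oligo in R 3.1.0, per the submitters' processing notes; versions of oligo and RMA and the build were not given in the sources used here. They ran from 2.05 to 13.5 over 41345 probe sets, with sample medians from 5.18 to 5.35, and were used unscaled. Background and signal of single probes are merged by RMA, so low genes have compressed differences. With 3 arrays in a group, precision is limited by that number.

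A probe table named 23521 probe sets with 1 symbol, 1814 with several and 16010 with none. The highest-mean row was taken for a gene with several. The 13082 genes above 5.26 in at least 3 samples were fitted with limma 3.58.1 in R 4.3.3 (1 mean for each of 12 groups, 36 samples, 24 residual degrees of freedom), with Benjamini-Hochberg adjustment within each comparison. Neighbours followed the RefSeq order of GRCm38.p6.

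Named were the members, the neighbours, the 5 genes most like each member, all partners, and of each list called genes by largest change; Pdcd1, Cd101, further called follicular helper genes and marker genes were named after their values were seen. Members and lists were chosen with earlier results of these data known. Same-numbered samples deviated together in every number for WT Th1 with WT Th0 (r across genes 0.39, 0.33 and 0.23), WT Th2 with WT Th0 (0.25, 0.12 and 0.11), KO Th1 with KO Th0 (0.70, 0.60 and 0.51) and KO Treg with KO Th0 (0.23, 0.13 and 0.30). The labels do not say what a number marks, and the fit held no block. The fit was tested on simulated data. Alternatives were other filters, scalings, row choices and priors, a replicate block, a sex term, WT samples alone, and samples left out.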

Additional observations from a re-analysis of the deposited data

Results flagged for a closer look

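Among 36 genes, the pair, its neighbours and its partners, some had KO samples all above WT in 1 condition and all below in another. These differences between conditions were not tested, and small groups separate often. Lta had 0.62 in naive cells against -0.55 in Th0, -0.95 in Th1, -0.72 in Th2 and -0.996 in Th17. Tnfsf14 had 0.55 in Th2 and 0.51 in Th17 against -0.65 in Th0. Ptpn6 had 0.30 in Treg against -0.42 in Th0, -0.32 in Th1 and -0.32 in Th2. Dok1 had 0.26 in Th0, 0.28 in Th2 and 0.16 in Th17 against -0.30 in Treg. Cd200r3, which is below the filter on low values, had 0.11 in Treg against -0.26 in naive cells and -0.27 in Th1. Neither Cd200 nor Btla had such a pattern, but they were chosen with these values known, so nothing is read from this. The share of all genes with such a pattern was not counted.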

How the results depend on the processing

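With no sample left out on its own, every WT comparison and every KO minus WT difference of Cd200 and Btla kept its direction, and every tested one its side of the threshold. Under another quantile normalization 2 neighbours fell on the mean instead of 4, Gtpbp8 rose in Th0 and Atg3 in Treg, and 8 partner genes rose instead of 4; the cause was not tested. With both KO samples numbered 1 of Th0 and Th1 left out, 1 follicular helper gene fell instead of 2. Over the 36 samples, 6 of the 10 most similar genes were shared. With the replicate block, the Th17 rise of Cd200 in WT was 2.74 (limma adjusted p = 1.4e-07), the Th2 and Treg falls of Btla were -1.74 (1e-07) and -1.29 (8.1e-06), and no call of the members in WT changed. Among neighbours and partners the block added falls of Abhd10 in Th0, Th2 and Th17 and of Cd200r1 in Th2, and ended that of Ptpn6 in Th1. Median centering and another quantile normalization ended the Ptpn6 call too. Median centering moved the median of all genes to -0.11 in WT Th2 against Th0 and to -0.12 in Th17 against Th0 in both genotypes.

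When single samples were left out, the Btla KO minus WT difference in Th2 ran from -0.071 to 0.65, turning without WT Th2 1. Btla in KO Th1 against KO Th0 ran from -0.12 to 0.29, turning without KO Th0 3, and Cd200 in KO Treg against KO Th0 from -0.092 to 0.21, turning without KO Th0 3 or KO Treg 3. Cd200 in WT Th2 against Th0, which did not pass, ran from -0.72 to 0.43, turning without WT Th2 1, and in WT Treg against Th0 from -0.89 to -0.23. Cd200 in WT Th0 against naive ran from 0.53 to 0.78 (limma adjusted p from 0.041 to 0.31). The count of follicular helper genes that fell ran from 1 to 4. The called values ran from 2.63 to 2.89 (Cd200, WT Th17), -2.06 to -1.34 (Btla, WT Th2) and -1.41 to -1.14 (Btla, WT Treg).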
